A study of Homo sapiens with 12 samples.

Results

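Genes of hyaluronan synthesis, turnover and reception were followed in the TC32 and HCT116 cancer cell lines with and without knockdown of PRKDC, the gene of the catalytic subunit of the DNA-dependent protein kinase. The 9 genes were UGDH, HAS2, HAS3, CEMIP2, CEMIP, HYAL2, HYAL3, CD44 and the antisense gene HMMR-AS1, and they were taken by name, with every array probe annotated to them. They were selected on earlier results of the same samples, in which CEMIP2 was higher with siPRKDC in both lines and HAS3 in HCT116. Those siPRKDC contrasts are therefore described here for the 9 genes and not tested. Of the 9 genes, 8 had a probe and these had 16 probes in all, of 47322 on the array. After a filter on dim probes, 7 of the 9 genes remained among 10386 genes tested. HMMR-AS1 had no probe and was not measured here, and no probe of HAS2 passed the filter.

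TC32 is an Ewing sarcoma line, grown in RPMI-1640 with serum, and HCT116 is a colorectal carcinoma line, grown in DMEM with serum. The groups were TC32 with siPRKDC, TC32 with siNeg, HCT116 with siPRKDC and HCT116 with siNeg, with 3 samples in each, and all 12 samples were taken 48 h after transfection at 20 nM. siNeg is the control siRNA, the labels name no other siRNA against PRKDC, and no untransfected sample was analysed here. Total RNA was hybridised to Illumina HumanHT-12 v4 BeadChips, which report 1 mean intensity per probe with a detection p-value against the negative control probes of the same array. The labels do not say that the 3 samples of a group were independent cultures; p-values here rest on the variation among these samples, some or all of which may be technical. Because the samples are bulk RNA, fewer cells expressing a gene and less of its RNA per cell cannot be told apart.

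Hyaluronan is a long, unsulfated polysaccharide of the extracellular matrix. UGDH oxidises UDP-glucose to UDP-glucuronic acid, and the synthases HAS1, HAS2 and HAS3 in the plasma membrane join this sugar to N-acetylglucosamine and extrude the growing chain. The chain is cut outside or at the surface of the cell by proteins such as HYAL2, CEMIP and CEMIP2, and the fragments are broken down in lysosomes. CD44 is the main cell-surface receptor for hyaluronan, is linked to the actin skeleton by ezrin, radixin and moesin, and is widely used as a marker of colorectal carcinoma cells.

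All levels below are background-corrected, quantile-normalised log2 intensities, with the deposited linear intensities given where they help. The lowest value of a detected probe on an array lay between 4.35 and 4.44 on this scale, so values near or below it only bound a level. The arrays detected between 15396 and 18153 probes, with 15396 to 16216 in TC32 siPRKDC against 16324 to 16603 in TC32 siNeg, and 17101 to 18153 in HCT116 siPRKDC against 17658 to 17740 in HCT116 siNeg. The lower counts in TC32 siPRKDC moved with every TC32 contrast below, and their part in it was not tested. PRKDC averaged 5.30 ± 0.32 with siPRKDC and 6.71 ± 0.17 with siNeg in TC32, and 4.59 ± 0.17 with siPRKDC and 7.25 ± 0.19 with siNeg in HCT116 (SD, n = 3 each). The log2 differences of this brightest probe were -1.41 and -2.66, with limma adjusted p of 3.80e-08 and 4.87e-11. Other kept PRKDC probes gave -0.86 and -0.92 in TC32, and -0.78 and -0.73 in HCT116. With siPRKDC these dimmer probes were near or below the detection limit. The size of the knockdown, and its difference between the lines, are therefore uncertain. Of 8 Ewing sarcoma markers, 7 had a probe and all 7 were detected in TC32, among them NKX2-2 and LIPI, which no HCT116 array detected. CCND1, CD99 and STEAP1 were detected on all HCT116 arrays too, and FLI1 and PAPPA on 1 HCT116 array each. Of 10 epithelial and colon markers, 8 were on no TC32 array, EPCAM, CDH1, KRT8 and KRT19 among them, and CEACAM5, CEACAM6 and VIL1 were on no HCT116 array. Their summed intensity was 885.1 to 920.4 in TC32 siPRKDC against 1197.8 to 1305.0 in TC32 siNeg, and 4340.1 to 4754.2 in HCT116 siPRKDC against 3792.6 to 4352.5 in HCT116 siNeg. CEACAM6 carried the TC32 shift: unlike the other markers named from its list, it was detected on all TC32 arrays, at 221.0, 274.2 and 251.7 with siPRKDC and 669.9, 574.9 and 546.6 with siNeg. The summed intensity of the Ewing sarcoma markers was 3624.2 to 4170.2 in TC32 siPRKDC against 3318.2 to 3855.8 in TC32 siNeg, and 2194.4 to 2272.7 in HCT116 siPRKDC against 1727.1 to 1962.8 in HCT116 siNeg. CCND1 carried the HCT116 shift, at 1694.2, 1658.1 and 1715.3 with siPRKDC and 1407.6, 1195.9 and 1240.6 with siNeg. Whether these shifts bear on the results below was not tested. Of 6 blood cell markers, PTPRC and CD3E were not detected in any group, CD68 was detected on all arrays, and CD14, CD79A and HBB were detected on some.

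CEMIP2 was the member that stood higher with siPRKDC in both lines, by 2.28-fold in TC32 and 2.17-fold in HCT116. Its level in TC32 siNeg was close to the detection limit. HAS3 and CEMIP were higher with siPRKDC in HCT116, by 2.81-fold and 1.94-fold, and neither was detected in TC32 siNeg. HYAL2 was higher with siPRKDC in TC32, and its HCT116 groups nearly met. UGDH overlapped between the siRNAs in both lines, CD44 did so in HCT116, and HAS2 was at background throughout. The background against which such changes stand was broad: of all 10386 genes, 42.7% were called between the siRNAs in TC32 and 18.8% in HCT116, at a limma adjusted p below 0.05. Of all genes, 21.8% were called higher with siPRKDC in TC32 and 9.20% in HCT116, and the other calls were lower. Groups without overlap were common too. Every siPRKDC value lay above every siNeg value for 24.7% of all genes in TC32 and 17.4% in HCT116. Every siPRKDC value lay below for 23.5% and 17.8%.

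**Figure D1:**
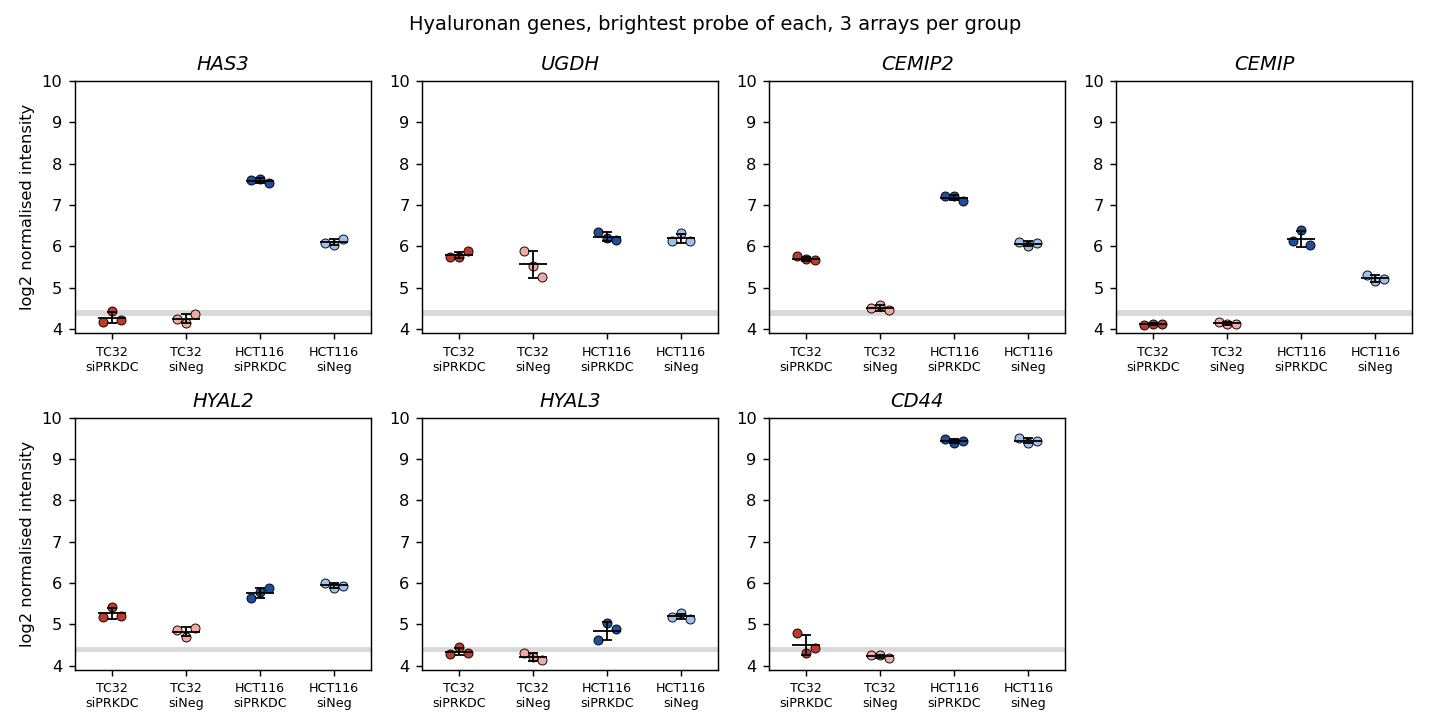
Normalised log2 intensity of each tested member in every sample, by its brightest probe, with siPRKDC left of siNeg in each line; points are samples, black bars are means with the SD of 3 samples, and the grey band is the lowest level of a detected probe (4.35 to 4.44). CEMIP2 lies higher with siPRKDC in both lines, while HAS3 and CEMIP lie in the band or below it in TC32 and higher with siPRKDC in HCT116.

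HAS3 encodes a synthase that makes comparatively short hyaluronan chains. It gave 7.61, 7.63 and 7.54 in HCT116 siPRKDC, against 6.08, 6.04 and 6.19 in HCT116 siNeg. The deposited intensities behind these values were 251.2, 259.3 and 257.7 with siPRKDC and 133.7, 123.9 and 135.5 with siNeg. Every siPRKDC sample lay above every siNeg sample. The log2 difference was 1.49 (SE 0.10), which placed HAS3 6th among the 10386 genes when ordered from the highest siPRKDC change in HCT116. In TC32 the same probe gave 4.16, 4.43 and 4.22 with siPRKDC and 4.23, 4.15 and 4.37 with siNeg, and was detected on 1 and 0 of the 3 arrays. These TC32 groups overlapped at the detection limit, and their difference was 0.03 (SE 0.10).

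HAS3 had another, dimmer probe, which was detected only in HCT116 siPRKDC. There it gave 4.60, 4.50 and 4.56, against 4.23, 4.33 and 4.29 in HCT116 siNeg, where no array detected it. The groups did not overlap, and the level with siPRKDC was at least 1.14-fold higher, a bound set by the detection limit. This probe passed the filter only through HCT116 siPRKDC, so its direction there is no separate support for the brighter probe. The probes differed in size, and averaging them gave a log2 difference of 0.88. In TC32 the dimmer probe was detected on no array, with a difference of -0.10.

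HAS2 makes long hyaluronan chains and is the synthase required for heart development in mouse embryos. It had 4 probes and all were near background. Of the 12 probe readings per group, 2 were detected in TC32 siPRKDC, 3 in TC32 siNeg and 0 in each HCT116 group. Intensities ran from 66.9 to 77.7 in TC32 siPRKDC, 66.9 to 76.9 in TC32 siNeg, 67.9 to 75.3 in HCT116 siPRKDC and 69.9 to 76.6 in HCT116 siNeg. No change in HAS2 was detectable at these signals. HAS1, the third synthase, had no probe paired to it and was not measured here.

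UGDH, the enzyme that supplies UDP-glucuronic acid to all synthases, was detected in every sample. It gave 5.73, 5.75 and 5.88 in TC32 siPRKDC, against 5.90, 5.53 and 5.26 in TC32 siNeg. It gave 6.35, 6.20 and 6.16 in HCT116 siPRKDC, against 6.12, 6.32 and 6.13 in HCT116 siNeg. The groups overlapped in both lines, with differences of 0.22 (SE 0.12) and 0.05, and the widest spread was within TC32 siNeg (SD 0.32).

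CEMIP2, formerly TMEM2, encodes a transmembrane protein described as a hyaluronidase of the cell surface, best shown for the mouse protein. It gave 5.76, 5.68 and 5.67 in TC32 siPRKDC, against 4.51, 4.59 and 4.45 in TC32 siNeg. It gave 7.22, 7.21 and 7.11 in HCT116 siPRKDC, against 6.10, 5.99 and 6.09 in HCT116 siNeg. The 4 groups did not overlap anywhere. From high to low they ran HCT116 siPRKDC, HCT116 siNeg, TC32 siPRKDC and TC32 siNeg. The siPRKDC difference was 1.19 (SE 0.09) in TC32 and 1.12 (SE 0.09) in HCT116, so the sizes differed between the lines by 0.07 (SE 0.12). The TC32 siNeg values were detected, but lay close to the lowest value of a detected probe on those arrays (4.39 to 4.4). The size of the TC32 difference, and its likeness to that in HCT116, are therefore uncertain. CEMIP2 ranked 53rd of 10386 genes from the top in TC32 and 13th in HCT116.

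In deposited intensities CEMIP2 read 104.8, 105.3 and 104.5 in TC32 siPRKDC, against 77.7, 77.9 and 75.7 in TC32 siNeg. In HCT116 it read 206.5, 206.4 and 206.8 with siPRKDC, against 134.6, 121.7 and 130.4 with siNeg. The direction was the same, and the size of the difference changed with the treatment of background in both lines. Without background correction it was 0.46 in TC32 and 0.71 in HCT116. The values that the authors deposited as log2 gave 0.41 and 0.75.

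CEMIP, formerly KIAA1199, encodes a secreted hyaluronan-binding protein that promotes the breakdown of hyaluronan. In HCT116 it gave 6.13, 6.39 and 6.02 with siPRKDC, against 5.31, 5.15 and 5.21 with siNeg. These groups were apart, with a log2 difference of 0.95 (SE 0.10) and rank 22 of 10386 genes. Without background correction the difference was 0.46. In TC32 no array detected it, with intensities of 66.9, 69.0 and 69.2 with siPRKDC and 70.5, 66.6 and 67.4 with siNeg, so no TC32 change was detectable. HAS3, CEMIP2 and CEMIP thus had a higher level with siPRKDC in HCT116, and among these CEMIP2 alone was detected in both lines.

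HYAL2 encodes a membrane-anchored hyaluronidase that cuts long hyaluronan into fragments. It gave 5.17, 5.42 and 5.20 in TC32 siPRKDC, against 4.86, 4.70 and 4.91 in TC32 siNeg. In HCT116 it gave 5.63, 5.78 and 5.88 with siPRKDC, against 6.01, 5.89 and 5.93 with siNeg. Every siPRKDC sample lay above every siNeg sample in TC32. In HCT116 the highest siPRKDC value (5.88) and the lowest siNeg value (5.89) nearly met, and the deposited intensities overlapped, at 105.4, 111.5 and 120.0 with siPRKDC and 129.6, 116.9 and 122.8 with siNeg. The differences were 0.44 (SE 0.10) and -0.18 (SE 0.10), and that in TC32 was 0.145 with the deposited log2 values. The other 2 probes of HYAL2 did not pass the filter in any group.

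HYAL3 belongs to the same enzyme family and lies beside HYAL2 and HYAL1 on chromosome 3. In HCT116 it gave 4.61, 5.04 and 4.89 with siPRKDC, against 5.17, 5.27 and 5.13 with siNeg. All siPRKDC samples were lower, with a difference of -0.34 (SE 0.11), which was -0.12 without background correction. In TC32 it was detected on 1 of 3 arrays with siPRKDC, at 4.27, 4.45 and 4.30, and on 0 of 3 with siNeg, at 4.30, 4.20 and 4.13. The TC32 groups overlapped near the detection limit, with a difference of 0.13. In the RefSeq annotation HYAL3 overlaps NAA80, and whether the probe reads both was not tested.

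The brightest probe of CD44, the receptor, was detected on every HCT116 array and on no TC32 siNeg array. It gave 9.48, 9.38 and 9.45 in HCT116 siPRKDC, against 9.52, 9.40 and 9.43 in HCT116 siNeg, with intensities of 719.2 to 784.8 and 761.1 to 903.5. These groups overlapped, with a difference of -0.01 (SE 0.10). In TC32 it gave 4.78, 4.31 and 4.42 with siPRKDC, where 1 of 3 arrays detected it, against 4.25, 4.24 and 4.18 with siNeg, where none did. The TC32 siPRKDC values lay above the siNeg values, but 4.78 was the only one from an array that detected the probe, so the size of this difference rests on 1 sample. CD44 is spliced into many isoforms, and its probes are annotated to different transcripts.

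A second CD44 probe gave 6.25 ± 0.03 in HCT116 siPRKDC and 6.21 ± 0.13 in HCT116 siNeg, and 4.29 in both TC32 groups. The remaining probe was near the detection limit everywhere, at 4.57 ± 0.04 in HCT116 siPRKDC and 4.30 ± 0.08 in HCT116 siNeg, with a difference of 0.27 and no overlap (SD, n = 3 each). It was detected on 3 and 1 of the 3 arrays in these groups. The dim probe passed the filter only through HCT116 siPRKDC, where it was highest, so its lack of overlap is not read as a change. The bright CD44 probes overlapped between the siRNAs in HCT116.

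**Figure D2:**
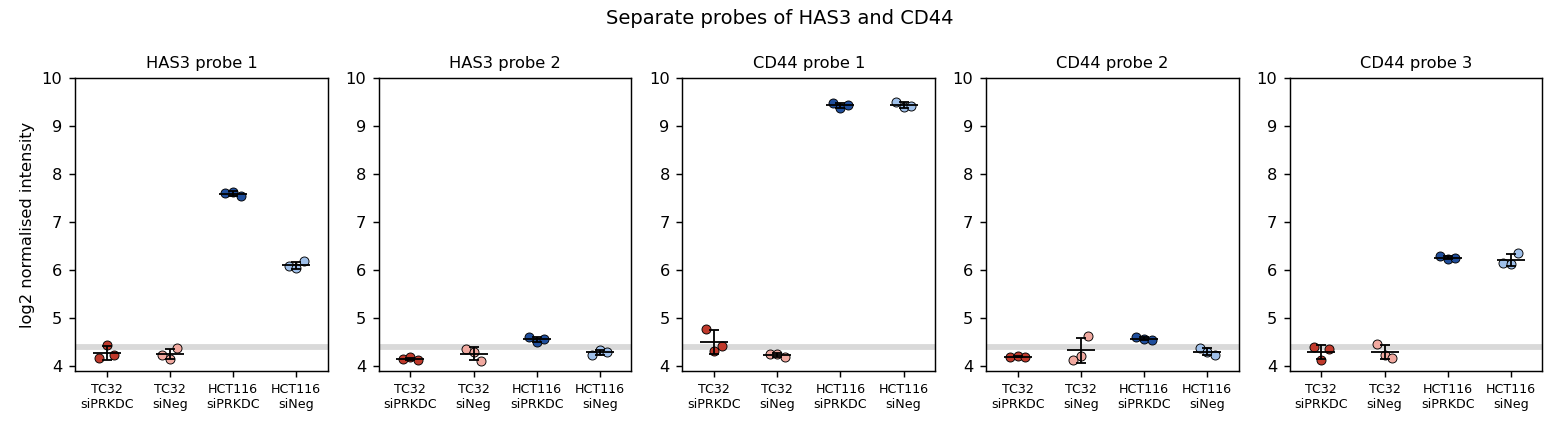
Normalised log2 intensity of each kept probe of HAS3 and CD44 in every sample, with siPRKDC left of siNeg in each line; points are samples, black bars are means with the SD of 3 samples, and the grey band is the lowest level of a detected probe. The brighter HAS3 probe is higher with siPRKDC in HCT116. The dimmer one is too, but it passed the filter only through that group and is no separate support. The brightest CD44 probe is near 9.4 in both HCT116 groups and near the band in TC32.

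**Figure D3:**
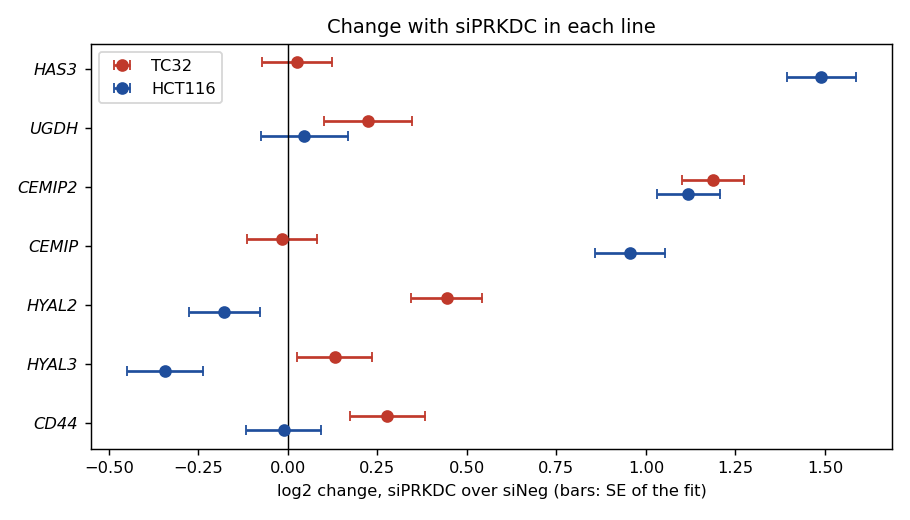
Log2 difference of siPRKDC against siNeg for each tested member by its brightest probe, in TC32 (red) and HCT116 (blue), with the standard error of the fit as bars. CEMIP2 is near 1.1 to 1.2 in both lines, HAS3 and CEMIP are near 0 in TC32 and at 1.49 and 0.95 in HCT116, and HYAL2 lies at 0.44 in TC32 and -0.18 in HCT116.

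The promoter windows of CEMIP2, HAS3 and CEMIP are shown because these were the 3 members higher with siPRKDC in HCT116. Each window is 300 bases around the annotated start of the gene and mostly upstream of it, from RefSeq on GRCh38.p14, written 5′ to 3′ on the strand of the gene. CEMIP2 is at chr9:71768464-71768763 on the minus strand, HAS3 at chr16:69107290-69107589 on the plus strand and CEMIP at chr15:80779120-80779419 on the plus strand. Capitals mark matches to a GC box (GGGCGG), an E-box (CACGTG) or a TATA box (TATAAA), on either strand.
CEMIP2: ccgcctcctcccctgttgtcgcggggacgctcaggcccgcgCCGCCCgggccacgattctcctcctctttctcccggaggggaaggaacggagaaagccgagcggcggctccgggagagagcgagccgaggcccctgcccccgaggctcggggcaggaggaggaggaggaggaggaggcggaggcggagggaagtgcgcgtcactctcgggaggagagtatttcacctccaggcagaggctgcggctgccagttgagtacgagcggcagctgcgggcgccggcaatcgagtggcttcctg
HAS3: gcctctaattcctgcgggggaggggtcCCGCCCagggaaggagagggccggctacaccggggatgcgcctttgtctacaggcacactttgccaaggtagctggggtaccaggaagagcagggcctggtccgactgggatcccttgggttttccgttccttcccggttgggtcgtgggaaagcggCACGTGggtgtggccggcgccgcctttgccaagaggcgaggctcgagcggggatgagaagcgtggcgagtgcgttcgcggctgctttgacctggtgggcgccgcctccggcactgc
CEMIP: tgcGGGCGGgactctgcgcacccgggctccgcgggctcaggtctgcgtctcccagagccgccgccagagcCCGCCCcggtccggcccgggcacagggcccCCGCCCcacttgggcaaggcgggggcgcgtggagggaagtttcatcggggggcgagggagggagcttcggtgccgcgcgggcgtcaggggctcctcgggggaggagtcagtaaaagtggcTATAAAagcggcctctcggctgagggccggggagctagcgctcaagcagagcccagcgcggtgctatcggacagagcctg

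The windows are rich in G and C, at 70.7% in CEMIP2, 67.0% in HAS3 and 73.0% in CEMIP. The GC box occurred 1 time in CEMIP2, 1 time in HAS3 and 3 times in CEMIP, and 45.0% of all 35116 promoter windows in the table held it. The E-box occurred in HAS3 alone among the 3 and in 7.26% of all windows, and the TATA box in CEMIP alone among the 3 and in 11.5% of all windows. No match was found in these 3 windows for a CCAAT box (CCAAT, in 34.6% of all windows), an AP-1 site (TGANTCA, 7.71%) or a cyclic AMP response element (TGACGTCA, 1.85%). None of the 6 motifs apart from the GC box was shared by the 3 windows. Searches covered both strands, none of the marked matches overlapped another, and a match is a description of the letters.

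Genes whose values ran most like those of CEMIP2 were found by Pearson's correlation over the 12 arrays, after each line's siNeg mean was subtracted. They were XPO4 (r = 0.979), RAB11FIP1 (0.977), DENND5B (0.976), MAP2K4 (0.975) and SLC16A10 (0.971), and 122 genes had r above 0.9. Like CEMIP2 they were higher with siPRKDC in both lines, by 0.98 and 0.88 in DENND5B, 0.87 and 0.72 in MAP2K4, and 0.52 and 0.50 in XPO4, giving TC32 first. For HAS3 the 5 genes were ACSL5 (0.990), CALB2 (0.987), NCALD (0.986), TNFRSF6B (0.983) and PRF1 (0.983), and 165 genes had r above 0.9. Their differences in TC32 ran from -0.05 in TNFRSF6B to 0.04 in PRF1, and they were higher in HCT116, by 1.52 in CALB2, 1.59 in TNFRSF6B and 1.69 in PRF1. The 12 arrays share the 2 lines, the knockdown and the normalisation, and the correlations are given as a description.

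The members were then compared between the lines under siNeg, a contrast that their stated selection did not use. The siPRKDC contrasts behind the selection share these siNeg arrays, and earlier results of these data were known. The adjusted p-values of the members are therefore not independent of the selection. Cell line and culture medium cannot be told apart in this comparison. Of all 10386 genes, 66.2% were called between TC32 and HCT116 under siNeg, 30.1% higher and 36.1% lower in TC32. HAS3, CEMIP, HYAL3 and CD44 passed the filter only through HCT116, which favours a difference, so their levels are given with no test. CEMIP2, HYAL2 and UGDH were detected in all samples of both lines.

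CEMIP2 averaged 4.51 ± 0.07 in TC32 siNeg and 6.06 ± 0.06 in HCT116 siNeg (SD, n = 3 each), a difference of -1.55 (SE 0.09) with a limma adjusted p of 5.31e-13. HYAL2 averaged 4.82 ± 0.11 in TC32 siNeg and 5.94 ± 0.06 in HCT116 siNeg, a difference of -1.12 (SE 0.10, adjusted p 1.46e-09). UGDH averaged 5.56 ± 0.32 in TC32 siNeg and 6.19 ± 0.11 in HCT116 siNeg, a difference of -0.63 (SE 0.12, adjusted p 0.00011). For all 3 genes each TC32 siNeg sample lay below each HCT116 siNeg sample, and the share of all genes for which this held was not counted. CEMIP2 was close to the detection limit in TC32 siNeg, so the size of its difference between the lines is uncertain. In TC32 siPRKDC, CEMIP2 averaged 5.70 ± 0.05, which was still below its level in HCT116 siNeg.

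CD44 was at least 33.2-fold lower in TC32 siNeg than in HCT116 siNeg by its brightest probe (4.22 ± 0.04 and 9.45 ± 0.06). HAS3 was at least 3.26-fold lower in TC32 (4.25 ± 0.11 and 6.10 ± 0.08), CEMIP at least 1.78-fold and HYAL3 at least 1.73-fold. These bounds set the HCT116 mean against the lowest detected signal on the TC32 arrays, and they hold for the background-corrected values alone. Without background correction the log2 differences were -0.77 for HAS3, -0.43 for CEMIP, -0.36 for HYAL3, -0.64 for CEMIP2, -0.48 for HYAL2 and -0.32 for UGDH, and the mean of the CD44 probes gave -2.37. The second CD44 probe was lower in TC32 by a log2 difference of -1.92, and the dim CD44 probe differed by 0.02.

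Beyond the members, 54 further genes of the hyaluronan pathway were listed by role, of which 49 had a probe and 26 were tested. GFPT2, PGM3, HAS1 and HYAL1 were among those with no probe paired to them, and the receptors LYVE1, STAB1, STAB2, TLR2 and TLR4 did not pass the filter. In TC32, 12 of the 26 genes were called between siPRKDC and siNeg, 7 higher and 5 lower, with a median log2 difference of -0.05 over the 26. The share was near the 42.7% of all genes, whose median was 0.005. Of the 19 genes detected on all 6 TC32 arrays, 11 were called, 6 higher and 5 lower.

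**Figure D4:**
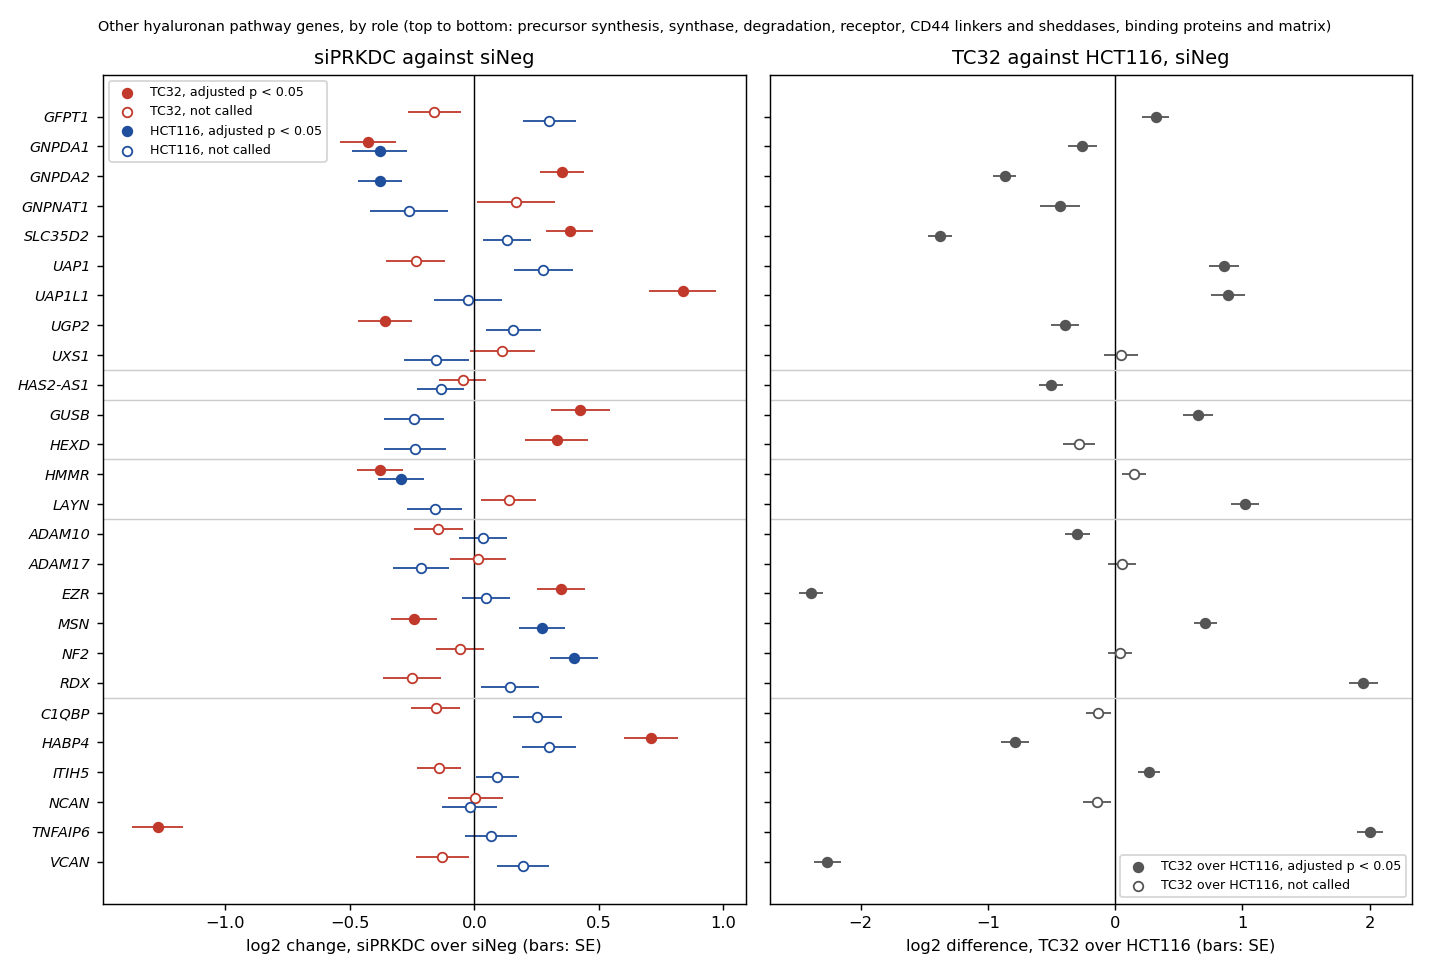
Log2 difference of the 26 further pathway genes tested, grouped by role, for siPRKDC against siNeg in TC32 (red) and HCT116 (blue) on the left and for TC32 against HCT116 under siNeg on the right, with standard errors of the fit as bars and filled points for genes called at a limma adjusted p below 0.05. Filled points number 12 in TC32, 5 in HCT116 and 19 between the lines, and TNFAIP6 in TC32 lies farthest from 0 on the left, at -1.27.

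TNFAIP6 had the strongest fall of the list in TC32. Its product, TSG-6, transfers inter-alpha-inhibitor heavy chains onto hyaluronan. It gave 5.19, 5.02 and 4.85 in TC32 siPRKDC, against 6.30, 6.29 and 6.27 in TC32 siNeg, with no overlap and a difference of -1.27 (limma adjusted p 2.32e-09). No HCT116 siNeg array detected it. HABP4, an intracellular hyaluronan- and RNA-binding protein, rose by 0.71 in TC32 (adjusted p 1.62e-05), and its other probe gave 0.44.

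Among 9 genes of precursor synthesis, 3 rose and 2 fell in TC32. UAP1L1, a relative of the enzyme that makes UDP-N-acetylglucosamine, rose by 0.84 (adjusted p 3.39e-05), although its other kept probe gave -0.06. GNPDA2, a deaminase that returns glucosamine-6-phosphate to glycolysis, rose by 0.35 (adjusted p 0.00275), and its relative GNPDA1 fell by 0.43 (adjusted p 0.00345). SLC35D2, a transporter of nucleotide sugars, was undetected in siNeg and at least 1.20-fold higher with siPRKDC (adjusted p 0.00249), a call lost with the authors' log2 values (0.0557, the highest of any alternative). UGP2, which makes UDP-glucose, fell by 0.36 (adjusted p 0.0108). HAS2-AS1, the antisense transcript of HAS2 and the only further gene of the synthase group tested, gave -0.05 (adjusted p 0.737).

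Both genes of lysosomal and hexosaminidase degradation that were tested were called higher in TC32. GUSB, the lysosomal β-glucuronidase, rose by 0.42 (adjusted p 0.00614). That call was lost without replicate 1 of TC32 siNeg (adjusted p 0.0582) and without replicate 1 of TC32 siPRKDC (0.0517). HEXD, a hexosaminidase, was called at 0.33 (adjusted p 0.038) with overlapping groups, and 9 of 22 alternatives ended that call. Among these were leaving out replicate 1 or 2 of siNeg (adjusted p 0.167 and 0.171) and replicate 1 or 3 of siPRKDC (0.0859 and 0.122).

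HMMR, the hyaluronan-mediated motility receptor, which also acts at the mitotic spindle, fell in TC32. It gave 7.05, 7.12 and 7.09 with siPRKDC, against 7.37, 7.56 and 7.48 with siNeg, a difference of -0.38 (adjusted p 0.00206), and its other probe gave -0.28. Of the proteins that link CD44 to actin, EZR (ezrin) rose by 0.35 (adjusted p 0.00572) and MSN (moesin) fell by 0.24 (adjusted p 0.0413). The other EZR probe gave 0.21 and did not pass the test (adjusted p 0.0938). The MSN call was lost without replicate 2 of siNeg (adjusted p 0.183, the highest of any alternative) and without replicate 1 or 3 of siPRKDC (0.114 and 0.137).

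In HCT116, 5 of the 26 genes were called between siPRKDC and siNeg, 2 higher and 3 lower, with a median of 0.04, beside 18.8% of all genes with a median of 0.001. The 3 lower were GNPDA2 at -0.38 (adjusted p 0.00425), GNPDA1 at -0.38 (adjusted p 0.0186) and HMMR at -0.29 (adjusted p 0.0297). The GNPDA1 call was lost without replicate 1 of siNeg (adjusted p 0.096) and without replicate 1 of siPRKDC (0.0888). The HMMR call was lost without replicate 1 or 3 of siNeg (0.0945 and 0.131) and without any 1 of the siPRKDC samples (0.0562 to 0.0932), and its other probe gave -0.20 (0.193). The higher genes were MSN, at 0.27 (adjusted p 0.0461), and NF2, the tumour suppressor merlin that opposes CD44 signalling.

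NF2 was detected on 3 HCT116 arrays with siPRKDC and 1 with siNeg and passed the filter only through the first group. The filter thus favoured a difference, and no p-value is given here for NF2. Its other kept probe passed in the same way and gave 0.18. The MSN call in HCT116 was lost when any 1 HCT116 sample was left out, with adjusted p of 0.0562 to 0.158, and without replicate 1 of TC32 siPRKDC (0.0527). HABP4 gave 0.30 (adjusted p 0.0573), GUSB -0.24 (0.173) and HAS2-AS1 -0.14 (0.357), and none passed the test. HABP4 was called under 8 of 22 alternatives, among them the deposited log2 values (0.0253), and GUSB with median scaling (0.0402). Of the 21 genes detected on all 6 HCT116 arrays, 4 were called, 1 higher and 3 lower. The 5 calls became 3 without replicate 1 or 3 of siNeg or replicate 3 of siPRKDC, and 2 without replicate 1 of siPRKDC.

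The effect of siPRKDC in TC32 minus that in HCT116 was called for 12 of the 26 genes, 5 higher and 7 lower, with a median of -0.01. Of all genes, 32.0% were called, 16.4% higher and the others lower. TNFAIP6 led with -1.34 (adjusted p 4.77e-07), followed by GNPDA2 at 0.73 (1.30e-04) and UAP1L1 at 0.86 (0.00155). GNPDA2 was higher with siPRKDC in TC32, at 5.75 ± 0.08 against 5.40 ± 0.04 in siNeg, and lower in HCT116, at 5.89 ± 0.04 against 6.27 ± 0.10 in siNeg (SD, n = 3 each). TNFAIP6 in HCT116, and NF2 in every group but HCT116 siPRKDC, were near or below the detection limit, so the sizes of their differences are uncertain. The 12 calls include NF2, for which the filter favoured a difference. MSN differed by -0.51 (0.00499), NF2 by -0.46, GUSB by 0.67 (0.00427) and HEXD by 0.57 (0.0174). The UAP1L1 call was lost with the mean of its probes (0.121). The HEXD call was lost without replicate 1 or 2 of TC32 siNeg (0.052 and 0.0509) or replicate 2 of HCT116 siNeg (0.0578). LAYN, which encodes the receptor layilin, gave 0.30 (0.154), HAS2-AS1 gave 0.09 (0.646), and neither passed the test.

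Under siNeg, 19 of the 26 further genes were called between the lines, 9 higher and 10 lower in TC32, with a median of -0.05 beside -0.06 for all genes. Of all genes, 66.2% were called, 30.1% higher and 36.1% lower, and the share of the 26 was near this. Of the 17 detected on all 6 arrays, 13 were called, 7 higher and 6 lower. The linkers of CD44 split: EZR was lower in TC32 siNeg by 2.39 on the log2 scale (9.20 ± 0.16 and 11.59 ± 0.04, adjusted p 1.03e-15), while RDX (radixin) was higher by 1.95 (1.28e-12) and MSN by 0.71 (7.05e-07). TNFAIP6 and LAYN passed the filter only through TC32, and VCAN, the hyaluronan-binding proteoglycan versican, and HAS2-AS1 only through HCT116. The filter thus favoured a difference, and no test is given for these genes, although the 19 calls include them. TNFAIP6 was at least 3.81-fold higher and HAS2-AS1 at least 1.26-fold lower in TC32 siNeg, while LAYN was detected on 1 of 3 HCT116 siNeg arrays and VCAN on 1 of 3 TC32 siNeg arrays. UAP1 and UAP1L1 were higher by 0.85 (1.45e-06) and 0.89 (5.51e-06). SLC35D2 was at least 2.39-fold lower in TC32 siNeg (1.86e-11), and GNPDA2 and HABP4 gave -0.87 (1.53e-08) and -0.79 (1.31e-06). GUSB was higher by 0.65 (5.49e-05), and ITIH5, a heavy chain of the inter-alpha-inhibitor family, by 0.26 (0.011), a call lost with median scaling (0.144). This ITIH5 probe averaged 12.13 in TC32 siNeg and 11.87 in HCT116 siNeg. Another probe annotated to the same transcript averaged 4.19 and 4.22, and no other ITIH5 probe passed the filter. Whether the bright probe reads ITIH5 was not tested. ADAM10, a protease that sheds CD44, gave -0.30 (0.0106), and its call was lost without replicate 1 of TC32 siNeg (0.0571) or replicate 3 of HCT116 siNeg (0.0704).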

How the data were processed

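The authors deposited 1 linear intensity per probe and array, not normalised, with a detection p-value for each per the file headers. The authors also deposited log2 values, which were used as an alternative. Per the submitters' processing notes, GenomeStudio, R 3.0.2 and lumi were used. Processing here used limma 3.58.1 in R 4.3.3: neqc with an offset of 16, background inferred from the detection p-values, quantile normalisation over 12 arrays and log2. Probes with a detection p below 0.05 on every array of 1 or more groups were kept, and a gene was represented by its brightest kept probe. A cell-means model with empirical Bayes covered 10386 genes, with two-sided tests, Benjamini-Hochberg adjustment over all genes and calls at an adjusted p below 0.05. Probes were named from the platform annotation, with 30074 of 30113 probes of 1 gene found in RefSeq.

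The members and lists were chosen with earlier results of these data known. Named were all members, PRKDC, in each comparison and role up to 4 called pathway genes of smallest p (or the 1 of smallest p where none was called), and the 5 genes most like CEMIP2 or HAS3. UGP2 in TC32, GFPT1, CEACAM6 and CCND1 fall outside this rule and were named after their values were seen. Alternatives changed the background correction, normalisation, filter, probe choice, model and samples. The slide could not be used as a block, since the files used here name none. With only 3 arrays per group, their number limits the precision.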

Additional observations from a re-analysis of the deposited data

Results flagged for a closer look

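For 12 pathway genes the siPRKDC effect in TC32 minus that in HCT116 passed a limma adjusted p below 0.05, beside 32.0% of all genes. The differences on the log2 scale were positive for UAP1L1 (0.86), GNPDA2 (0.73), GUSB (0.67), HEXD (0.57) and HABP4 (0.41). They were negative for TNFAIP6 (-1.34), UGP2 (-0.51), UAP1 (-0.51), MSN (-0.51), NF2 (-0.46), GFPT1 (-0.46) and C1QBP (-0.41). NF2 was detected on all 3 arrays in HCT116 siPRKDC alone and passed the filter only through that group. The filter thus favoured a difference, and the place of NF2 among the 12 is not read as a test result. The other UAP1L1 probe gave -0.20. The other GFPT1 probe gave -0.78, from -0.28 in TC32 and 0.51 in HCT116. The brightest GFPT1 probe was called in neither line (limma adjusted p 0.248 and 0.0552), and no alternatives were run for this gene. The UGP2 call was lost with median scaling (adjusted p 0.0895) and without replicate 1 of TC32 siPRKDC (0.0503). The UAP1 call was lost without replicate 3 of TC32 siNeg (0.0647), HCT116 siPRKDC (0.0636) or HCT116 siNeg (0.0827), or replicate 1 of TC32 siPRKDC (0.0531). The C1QBP call was lost without replicate 3 of TC32 siPRKDC (0.054), replicate 1 of TC32 siNeg (0.0686), replicate 2 of HCT116 siPRKDC (0.0845) or replicate 1 of HCT116 siNeg (0.0708). The HABP4 call was lost in 8 of 12 such repeats, without any 1 of the TC32 siPRKDC samples, replicate 1 of TC32 siNeg, replicate 1 or 2 of HCT116 siPRKDC, or replicate 1 or 2 of HCT116 siNeg (0.0527 to 0.143). HYAL2 was picked out because every siPRKDC sample was above siNeg in TC32 and below it in HCT116, so that the effects differed by 0.62. In HCT116 the nearest values were 5.88 with siPRKDC and 5.89 with siNeg, the deposited intensities overlapped, and the TC32 change was 0.145 with the deposited log2 values. This difference was not tested, because both contrasts had chosen the members.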

How the results depend on the processing

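Between the lines under siNeg, call and direction held for CEMIP2 in 19 of 19 alternatives, and for HYAL2 and UGDH in 20 of 20. The highest limma adjusted p were 9.95e-11, 1.06e-07 and 0.0014. The other repeats, to 135 in all, were of HAS3, CEMIP, HYAL3 and CD44. These genes passed the filter only through HCT116, which favours a call, so their repeats are no check. No result reversed. With detection p below 0.01 on all 12 arrays, only 2 members were tested and 2 were called, and the calls of all genes numbered 4398 of fewer tested, against 6877. The log2 change of CEMIP2 in TC32 (1.19) became 0.46 without background correction, 1.08 with cyclic loess, 1.12 with median scaling and 0.41 with the authors' deposited values, and in HCT116 (1.12) it became 0.71, 1.05 with median scaling and 0.75 with the deposited values. Without any 1 replicate it ran from 1.15 to 1.22 in TC32 and 1.09 to 1.15 in HCT116. HAS3 in HCT116 (1.49) became 1.00 without background correction, 1.05 with the deposited values and 0.88 as the mean of its probes. The 5 pathway calls in HCT116 became 8 without background correction, 8 with the deposited values and 2 to 6 without 1 replicate (3 without siNeg 1, siNeg 3 or siPRKDC 3, and 2 without siPRKDC 1). Of 986 repeats of single pathway tests, 909 kept their call, 68 lost it and 9 gained it. The call for the difference was lost for UAP1L1 with the mean of its probes (0.121). The UGP2 difference lost its call with median scaling (0.0895) and without TC32 siPRKDC 1 (0.0503). Calls were also lost for the differences of HABP4 under 12 alternatives (up to 0.155), UAP1 under 6 (0.0827), C1QBP under 5 (0.252) and HEXD under 5 (0.0578). The NF2 difference, which the filter favoured, lost its call without background correction. Between the lines, ADAM10 lost its call under 2 alternatives (0.0704). The cause of these losses was not tested. Median scaling moved the share of called genes that were higher to 33.2% in HCT116 (49.1% as reported, 56.3% with cyclic loess), 62.9% for the difference (51.4% as reported, 44.1% with cyclic loess) and 30.7% between the lines (45.4% as reported), where the median of all genes was -0.22, against -0.06. Deviations of samples with the same replicate number correlated weakly, at 0.00165 to 0.111 within the lines and -0.0439 to 0.0242 between them, so the numbers were not taken as pairs, although the own number was the best match for 2 of 3 samples in each group. With a replicate block, 12, 4, 11 and 19 pathway genes were called in TC32, HCT116, the difference and the line comparison, and the MSN call in HCT116 was lost (0.0516), as was the HABP4 difference (0.0515). Signals near background limit HAS2, HAS3 and CEMIP in TC32, CEMIP2 in TC32 siNeg, HYAL3 and the dim CD44 probe.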
